A study of Saccharomyces cerevisiae with 16 samples.

Results

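The genes described here are 10 members of the iron regulon of baker's yeast, Saccharomyces cerevisiae: TIS11, CTH1, HMX1, FET3, FTR1, FTH1, FRE1, SMF3, MRS4 and AFT1. They were chosen by name, with earlier results of these data known, and all 10 were measured, out of 5315 named genes on the array. The experiment followed newly made RNA after removal of Mot1 from the nucleus. Mot1 is an ATPase that takes the TATA-binding protein off DNA. In the anchor-away method used, rapamycin ties a protein tagged with an FRB domain to a ribosomal protein tagged with FKBP12, which leaves the nucleus as ribosomes are assembled. The Mot1-aa strain carried a Mot1-FRB-yEGFP-3V5 fusion, and the WT-aa strain carried no FRB fusion.

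Both strains carried the tor1-1 allele, which makes growth resistant to rapamycin, a deletion of FPR1 and the RPL13A-FKBP12 anchor, so the controls shared every one of these changes. The medium was synthetic complete with 2% glucose. Rapamycin at 7.5 µM was present for 0, 10, 20 or 30 min, and 4-thiouracil at 5 mM was there for the final 6 min, so that new RNA could be purified. Each of the 8 strain and time groups held 2 independent cultures, 16 arrays in all. Each array set 1 culture against a common reference, labelled RNA pooled from WT-aa cultures that received no rapamycin. Values are log2 of sample over reference, so 0 is the level of the reference and 1 is a doubling. The sample was in Cy3 for culture 1 and in Cy5 for culture 2 of every group, so dye and culture number cannot be told apart, and values for each are given side by side. Every array was scaled to its own genes, so a value is a level relative to the typical gene. Fewer cells making an RNA and less of it per cell cannot be told apart in such cultures.

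Yeast senses iron through the iron-sulphur clusters made in its mitochondria. When these run short, the transcription factor Aft1 stays in the nucleus and switches on the iron regulon: reductases, oxidases and permeases at the cell surface, transporters that empty the vacuole, enzymes that recover iron from heme, and RNA-binding proteins that direct the decay of messages for iron-using proteins. No iron was added or withheld in the groups compared here.

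All 10 members were detected on every array. Each had 1 probe printed as 2 spots, and on 16 of 16 arrays each was brighter than 99% of the negative spots, with no saturated spot. Sample signal was lowest for TIS11, at 4.39 times background, and for HMX1, at 4.73 times background. Both values came from the culture 1 array of Mot1-aa at 0 min. That array is 1 of the 2 from which every Mot1-aa change and depletion effect is reckoned. Across all gene spots the signal was 11.6 times background on the culture 1 array of Mot1-aa at 0 min and at least 22.4 times on the others. The cultures of Mot1-aa at 10 min did not match each other: their changes from 0 min, over all genes, had a correlation of -0.0583, against 0.816 at 20 min and 0.906 at 30 min. Correlations of the changes were also low in WT-aa, at 0.170, 0.226 and 0.0991 at 10, 20 and 30 min. There only 0.414%, 0.113% and 0.395% of all genes passed as changed. Array weights, which are lower for noisier arrays, were lowest for Mot1-aa at 10 min, at 0.148. They were 3.12 and 3.30 for WT-aa at 10 and 20 min, and 0.605 for WT-aa at 0 min. The levels themselves correlated between cultures at 0.380 for Mot1-aa at 10 min and at 0.0658 for WT-aa at 0 min. MOT1 RNA itself does not report the depletion, which moves the protein. In Mot1-aa it ranged from -2.31 to 0.61 over the 8 arrays, and in WT-aa from -0.09 to 0.29. The Mot1-aa cultures disagreed within a time: 0.40 in culture 1 and -2.31 in culture 2 at 10 min, and -0.18 and -1.31 at 0 min.

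TIS11 encodes a zinc-finger protein, also called Cth2, that binds AU-rich elements and brings about decay of messages for iron-using proteins. It rose in Mot1-aa, and the order of the strains turned between 0 and 30 min. In WT-aa culture 1, TIS11 stood at 0.34, 0.06, -0.25 and -0.25 at 0, 10, 20 and 30 min, and in culture 2 at 0.40, 0.30, 0.14 and -0.12. Its Mot1-aa values in culture 1 were -0.70, 0.02, 0.04 and 0.53, and in culture 2 -0.35, -0.11, 0.50 and 0.78. At 0 min both Mot1-aa cultures lay below both WT-aa cultures, and at 30 min both lay above, with no overlap at either time. Within Mot1-aa, the 30 min arrays lay above both 0 min arrays, whereas within WT-aa they lay below.

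**Figure D1:**
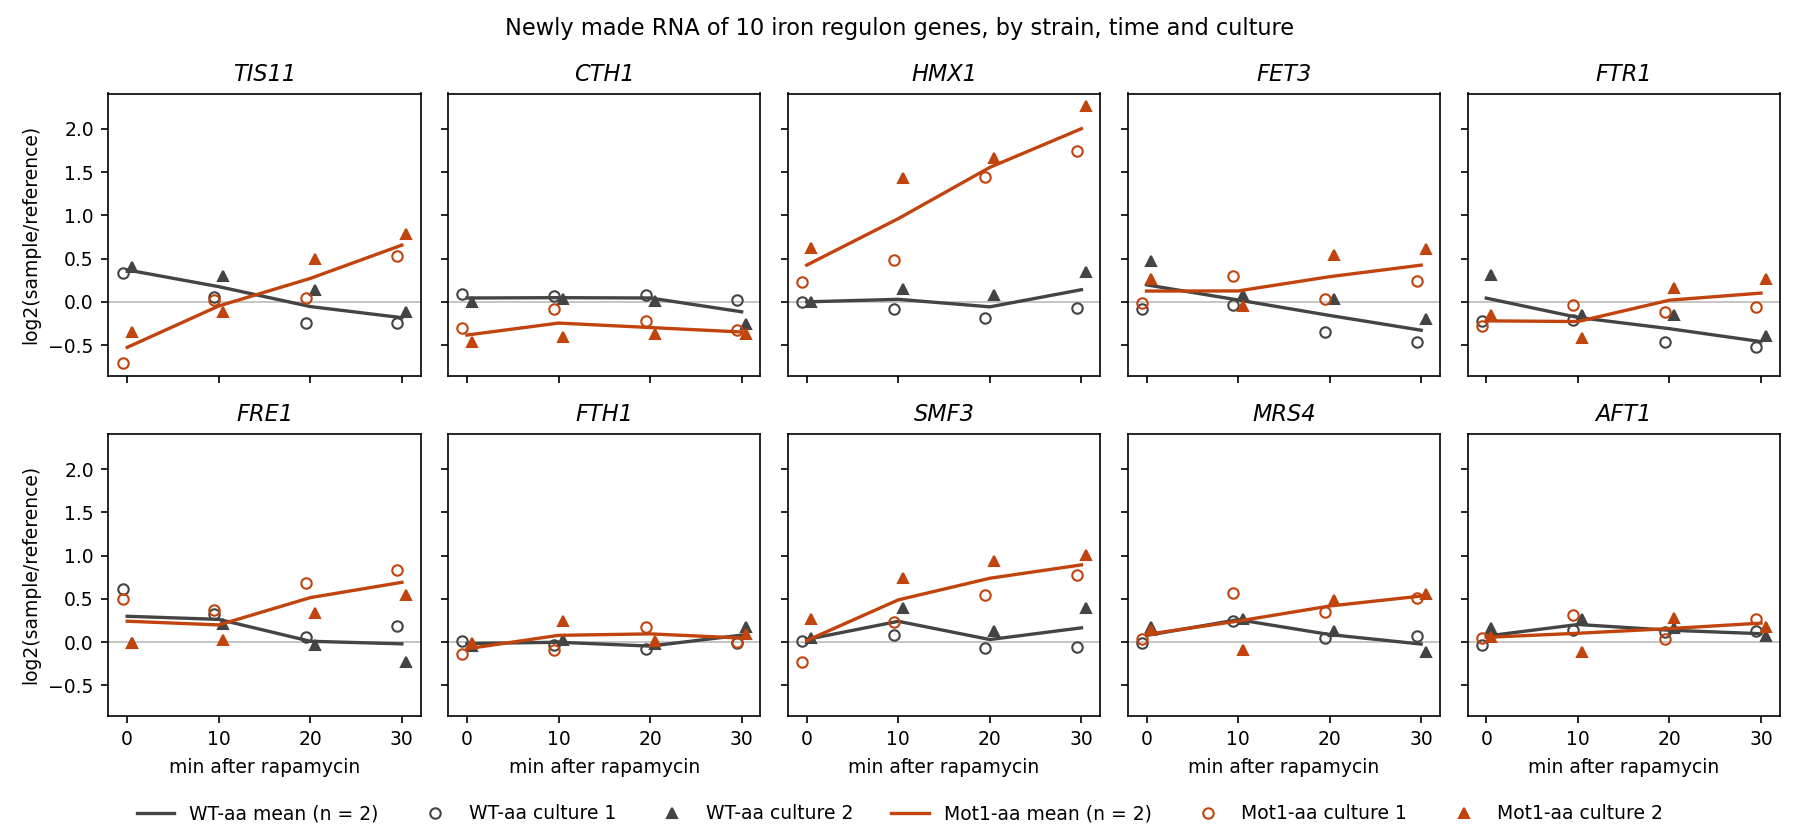
Log2 sample over reference (vertical axis) against minutes of rapamycin (horizontal axis) for each of the 10 genes; each point is 1 array, marked by strain and culture, and the lines join the group means of 2 cultures. TIS11 starts at -0.53 in Mot1-aa and 0.37 in WT-aa and ends at 0.66 and -0.18, HMX1 climbs to 2.00 in Mot1-aa, and FTH1 and AFT1 stay near 0 in both strains.

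Before rapamycin TIS11 was lower in Mot1-aa than in WT-aa by a log2 difference of -0.90 (SE 0.12, 2 cultures per group, limma adjusted p = 0.00301), that is 1.86-fold. This strain difference is present at 0 min, when the tag is in place and no rapamycin has been given. By 30 min the strain difference was 0.84 (SE 0.12, limma adjusted p = 3.05e-04), or 1.79-fold higher in Mot1-aa. Within Mot1-aa TIS11 had risen by 1.18 (SE 0.12, limma adjusted p = 4.27e-05), or 2.27-fold. The WT-aa change at 30 min was -0.55 (limma adjusted p = 0.144), which did not pass. The call at 0 min was lost when the culture 1 array of Mot1-aa at 0 min was left out (adjusted p = 0.0536). It was also lost with only the arrays of the groups compared (adjusted p = 0.195) and with scaling on external control spots, where the difference was -1.48 (adjusted p = 0.0541). With that scaling the strain difference at 30 min was 0.52, and its call was lost too (limma adjusted p = 0.210).

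The depletion effect is what remains of the Mot1-aa change since 0 min once the WT-aa change is taken away. A response to rapamycin shared by the strains is thus removed, and the strain difference at 0 min is subtracted. Where the strain difference has opposite signs at 0 and 30 min, both add to the size of the effect. This was so for TIS11, with -0.90 at 0 min and 0.84 at 30 min. For TIS11 it was 1.22 (SE 0.17, limma adjusted p = 0.00298), or 2.33-fold, at 20 min. At 30 min it reached 1.73 (95% interval 1.35 to 2.12, limma adjusted p = 2.13e-04), or 3.33-fold. It was 1.82 within culture 1 and 1.65 within culture 2, so both dye orientations gave nearly the same value. Part of its size comes from the WT-aa cultures, whose TIS11 values were lower at 30 min than at 0 min. Part comes from the low start in Mot1-aa, with a group mean of -0.53 at 0 min. The WT-aa mean at 0 min, 0.37, lay above the reference, itself pooled from WT-aa cultures without rapamycin. Both calls passed whichever array was left out.

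CTH1 encodes a paralog of Tis11, a zinc-finger protein that acts early in iron shortage. Its levels were unlike those of TIS11. Mot1-aa culture 1 gave -0.31, -0.08, -0.22 and -0.32 at 0, 10, 20 and 30 min, and culture 2 gave -0.46, -0.41, -0.37 and -0.37. WT-aa culture 1 gave 0.10, 0.07, 0.08 and 0.03, and culture 2 gave -0.01, 0.03, 0.02 and -0.26. The Mot1-aa arrays were the lower ones at each time, with no overlap within a time, and no change with time passed the test in either strain.

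CTH1 was lower in Mot1-aa by a log2 difference of -0.43 (SE 0.08, limma adjusted p = 0.0219) at 0 min, of -0.34 (SE 0.08, limma adjusted p = 0.00973) at 20 min and of -0.23 (SE 0.08, limma adjusted p = 0.038) at 30 min. Its depletion effect at 30 min was 0.19 (95% interval -0.06 to 0.45, limma adjusted p = 0.261), which covers 0 and leaves out an effect as large as that of TIS11. The call at 0 min was lost without any 1 of its 4 arrays, the call at 20 min without any 1 of 3, and the call at 30 min without any 1 of 7 of the 16 arrays. All 3 were lost without the dye term (adjusted p = 0.229, 0.0763 and 0.169) and on external control spots (adjusted p = 0.0541, 0.583 and 0.112). The call at 0 min was lost with only the groups compared (adjusted p = 0.330), and that at 30 min with the authors' deposited ratios (adjusted p = 0.191).

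HMX1 encodes heme oxygenase, which opens the ring of heme and frees its iron. Its ratio to the reference reached the highest value of the 10 genes. Its Mot1-aa values in culture 1 were 0.23, 0.49, 1.45 and 1.74 at 0, 10, 20 and 30 min, and in culture 2 0.62, 1.44, 1.67 and 2.26. In WT-aa culture 1 its values were -0.00, -0.09, -0.19 and -0.07, and in culture 2 0.00, 0.15, 0.08 and 0.35. Every Mot1-aa array lay above every WT-aa array of the same time, and within Mot1-aa the 20 and 30 min arrays lay above both 0 min arrays. The span of its 8 group means, 2.06, was at the 99.3rd percentile of all genes.

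The rise of HMX1 in Mot1-aa was 1.13 (SE 0.17, limma adjusted p = 8.3e-04), or 2.19-fold, at 20 min. At 30 min it was 1.58 (SE 0.17, limma adjusted p = 5e-05), or 2.98-fold. The strains differed at 30 min by 1.86 (SE 0.17, limma adjusted p = 1.11e-05), or 3.63-fold. Since WT-aa stayed near 0, the depletion effect at 30 min was close to the Mot1-aa change alone: 1.44 (95% interval 0.91 to 1.97, limma adjusted p = 0.00265), or 2.71-fold. It was 1.58 within culture 1 and 1.29 within culture 2.

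At 20 min the depletion effect on HMX1 was 1.19 (SE 0.24, limma adjusted p = 0.0147). That call was lost without any 1 of 4 arrays, namely culture 1 of Mot1-aa at 0 or 20 min, culture 1 of WT-aa at 0 min and culture 2 of WT-aa at 20 min, with adjusted p up to 0.0833. It was also lost without the dye term (adjusted p = 0.156) and on external control spots (adjusted p = 0.102). At 0 min the strain difference was 0.42 (SE 0.17, limma adjusted p = 0.272). Its sign turned, to -0.08, when arrays were scaled on the external control spots instead of on the genes. The order of the strains for HMX1 before rapamycin, Mot1-aa above WT-aa when scaled on the genes, thus depends on the scaling. The external spots were dim, at 1.15 to 1.50 times background. Scaled on the genes, the difference was 0.23 in culture 1 and 0.62 in culture 2. Without both Mot1-aa 10 min arrays, a setting chosen after seeing the data, it stayed at 0.42, with a limma adjusted p of 0.0281.

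The groups can be put in order for HMX1. Mot1-aa at 30 min was highest at 2.00 ± 0.37 (SD, n = 2), then Mot1-aa at 20 min at 1.56 ± 0.16, at 10 min at 0.96 ± 0.67 and at 0 min at 0.43 ± 0.28. The 30 and 20 min cultures did not overlap, nor did the 20 and 10 min cultures, while each later pair of neighbours overlapped, the 4 WT-aa groups among them. TIS11 had a mixed order. Mot1-aa at 30 min came first at 0.66 ± 0.18 (SD, n = 2), WT-aa at 0 min came next at 0.37 ± 0.05, WT-aa at 30 min was next to last at -0.18 ± 0.09, and Mot1-aa at 0 min came last at -0.53 ± 0.25. TIS11 neighbours failed to overlap at the top and at the bottom of that order, and also between WT-aa at 10 min and Mot1-aa at 10 min.

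FET3 and FTR1 encode the pair that carries iron across the plasma membrane with high affinity: Fet3, a multicopper ferroxidase, and Ftr1, the permease. For both, the 2 WT-aa arrays at 30 min lay below the 2 WT-aa arrays at 0 min. FET3 in WT-aa culture 1 was -0.08, -0.04, -0.34 and -0.46 at 0, 10, 20 and 30 min, and in culture 2 it was 0.48, 0.08, 0.03 and -0.19. FET3 in Mot1-aa culture 1 was -0.01, 0.30, 0.04 and 0.24, and in culture 2 it was 0.27, -0.04, 0.55 and 0.61. At 30 min both Mot1-aa arrays lay above both WT-aa arrays, and at 0 min the strains overlapped.

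FTR1 had the same shape at lower values. In WT-aa culture 1 it was -0.22, -0.21, -0.47 and -0.52, and in culture 2 it was 0.31, -0.15, -0.15 and -0.40. In Mot1-aa culture 1 it was -0.28, -0.04, -0.12 and -0.06, and in culture 2 it was -0.15, -0.41, 0.16 and 0.26. At 30 min both WT-aa arrays of FTR1 lay below both Mot1-aa arrays, and at 0 min the strains overlapped.

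At 30 min the strain difference was 0.75 (SE 0.17, limma adjusted p = 0.00432) for FET3 and 0.56 (SE 0.16, limma adjusted p = 0.0153) for FTR1. The depletion effect was 0.82 (SE 0.24, limma adjusted p = 0.0354) for FET3 and 0.82 (SE 0.23, limma adjusted p = 0.0294) for FTR1, each 1.77-fold. Much of this size is on the control side: the change within Mot1-aa was 0.30 for FET3 and 0.32 for FTR1, and the change within WT-aa was -0.52 and -0.50, none of which passed. Both calls lay close to the threshold of 0.05. The FET3 estimate stayed at 0.82 when any WT-aa array at 10 or 20 min was left out, yet its call was lost. The FET3 call was lost without any 1 of 11 of the 16 arrays (highest adjusted p 0.129) and the FTR1 call without any 1 of 7 (highest adjusted p 0.11), and both were lost without the dye term.

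FRE1 encodes a reductase at the plasma membrane that makes ferric and cupric ions ready for uptake. In Mot1-aa culture 1 it was 0.49, 0.37, 0.69 and 0.84 at 0, 10, 20 and 30 min, and in culture 2 it was -0.01, 0.03, 0.34 and 0.55. In WT-aa culture 1 it was 0.61, 0.32, 0.06 and 0.19, and in culture 2 it was -0.01, 0.21, -0.04 and -0.23. Culture 1 lay above culture 2 at every time in both strains. Within each culture the Mot1-aa value was higher at 30 min than at 0 min and the WT-aa value was lower.

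The depletion effect on FRE1 at 30 min was 0.77 (SE 0.17, limma adjusted p = 0.00936), or 1.70-fold, and the within-culture values were 0.76 and 0.77. Without the dye term, which takes up the gap between cultures, the adjusted p was 0.175. The rise within Mot1-aa was 0.45 (SE 0.12, limma adjusted p = 0.0108), or 1.37-fold, and that call was lost without culture 1 or culture 2 of Mot1-aa at 30 min or culture 2 at 0 min, and without the dye term (adjusted p = 0.172).

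SMF3, FTH1 and MRS4 act inside the cell. SMF3 encodes a transporter that lets iron out of the vacuole, FTH1 a permease that works at the vacuole membrane with the oxidase Fet5, and MRS4 a carrier that brings iron into mitochondria. SMF3 in Mot1-aa culture 1 was -0.23, 0.24, 0.54 and 0.77 at 0, 10, 20 and 30 min, and in culture 2 it was 0.27, 0.74, 0.93 and 1.01. SMF3 in WT-aa culture 1 was 0.02, 0.09, -0.07 and -0.06, and in culture 2 it was 0.04, 0.39, 0.13 and 0.39. Both cultures of Mot1-aa lay above both of WT-aa at 20 and at 30 min, and the strains overlapped at 0 min.

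SMF3 rose in Mot1-aa by 0.88 (SE 0.11, limma adjusted p = 1.37e-04), or 1.83-fold, at 30 min. Its depletion effect was 0.72 (SE 0.16, limma adjusted p = 0.0194) at 20 min and 0.74 (SE 0.16, limma adjusted p = 0.0081) at 30 min, the latter 1.67-fold. The cultures differed in its size, with 1.09 in culture 1 and 0.40 in culture 2. From the authors' deposited log2 ratios the 30 min effect was 0.41 (limma adjusted p = 0.156), and without the dye term the adjusted p was 0.171. The 20 min call was also lost without any 1 of 5 arrays, with adjusted p up to 0.11.

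MRS4 in Mot1-aa was 0.03, 0.57, 0.35 and 0.51 in culture 1 and 0.14, -0.09, 0.49 and 0.56 in culture 2. In WT-aa it was -0.01, 0.25, 0.05 and 0.07 in culture 1 and 0.17, 0.27, 0.13 and -0.12 in culture 2. Both Mot1-aa arrays lay above both WT-aa arrays at 20 and 30 min. The strain difference passed at 30 min, at 0.56 (SE 0.17, limma adjusted p = 0.0193), and that call was lost without either Mot1-aa array of that time or culture 2 of WT-aa. The depletion effect, 0.54 (95% interval 0.02 to 1.07), had a limma adjusted p of 0.131, and of 0.0042 when both Mot1-aa 10 min arrays were left out.

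FTH1 ranged from -0.14 to 0.24 over the 16 arrays, and AFT1, the gene of the transcription factor itself, from -0.11 to 0.32. Group means spanned 0.17 for FTH1 and 0.16 for AFT1, against a median span of 0.37 over all genes. The depletion effect at 30 min was 0.03 (95% interval -0.29 to 0.34) for FTH1 and 0.14 (95% interval -0.28 to 0.55) for AFT1. These intervals leave out effects of the size seen for TIS11 and HMX1, and that for AFT1 does not leave out a rise of modest size.

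**Figure D2:**
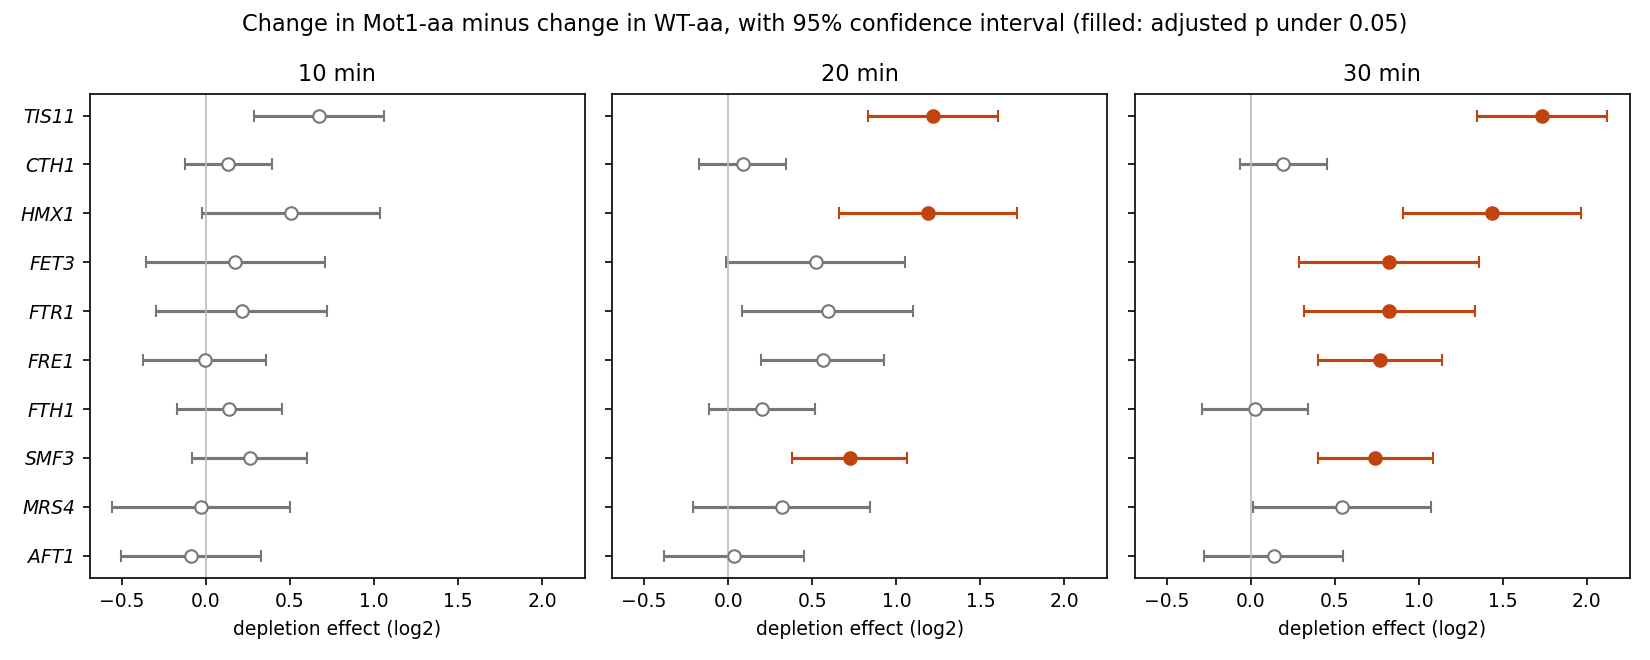
Depletion effect at 10, 20 and 30 min (log2, horizontal axis) for each of the 10 genes, as the estimate from 2 cultures per group with its 95% interval, filled where the adjusted p passed. At 30 min TIS11 (1.73) and HMX1 (1.44) lie farthest to the right, 6 genes passed the test, and CTH1, FTH1 and AFT1 have intervals that cover 0.

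Counted over the 10 genes, the depletion effect at 30 min passed for 6, all higher: TIS11, HMX1, FET3, FTR1, FRE1 and SMF3. Over all 5315 genes 13.6% passed in that direction and 7.51% in the other. The median effect of the 10 was 0.75, against 0.01 over all genes. At 20 min the test passed for 3, TIS11, HMX1 and SMF3, where 7.06% of all genes passed higher, with a median of 0.54. At 10 min it passed for 0 of the 10 in limma, as for 0% of all genes. At an unadjusted p under 0.05 it passed for 1 of the 10 and for 4.23% of all genes. The median at 10 min was 0.16. Leaving out 1 array at a time gave 4 to 7 calls at 30 min and 1 to 6 at 20 min.

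The choice of processing matters for these counts. Without a term for dye and culture number, 2 of the 10 passed at 30 min, TIS11 and HMX1, where 6.64% of all genes passed higher, and 1 at 20 min, where 1.62% did. When arrays were scaled on external control spots, whose signal was only 1.15 to 1.50 times background, 0 passed at 20 or 30 min, where 0% and 0.0753% of all genes passed higher. The median depletion effect of all genes then moved to 0.54 at 20 min and 0.27 at 30 min, and the estimates stayed positive for the genes named, 1.99 for TIS11 and 1.68 for HMX1 at 30 min (limma adjusted p = 0.054 each).

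The changes with time inside each strain were counted in the same way. In Mot1-aa, 1 of the 10 rose by 10 min (SMF3, 0.47, limma adjusted p = 0.0441, a call lost without any 1 of 13 arrays), where 3.07% of all genes rose. By 20 min 3 had risen (HMX1, TIS11 and SMF3), where 16.4% of all genes rose. By 30 min 4 had risen, with FRE1 added, where 22.9% of all genes rose. Counted by arrays alone, 8 of the 10 had both 30 min arrays above both 0 min arrays, as had 34% of all genes. Without both arrays of Mot1-aa at 10 min the count at 30 min was 7, where 29.6% of all genes rose in that fit.

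In WT-aa, 0 of the 10 passed at 10, 20 or 30 min in limma, where 0.414%, 0.113% and 0.395% of all genes passed in either direction. At an unadjusted p under 0.05 the counts were 0, 2 and 4, where 7.51%, 4.57% and 8.67% of all genes passed. When both arrays of Mot1-aa at 10 min were left out of the limma fit, 3 passed at 30 min, all lower. In that fit 0.621% of all genes were lower. The 3 were TIS11 (limma adjusted p = 0.0100), FET3 (limma adjusted p = 0.0166) and FTR1 (limma adjusted p = 0.0272).

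**Figure D3:**
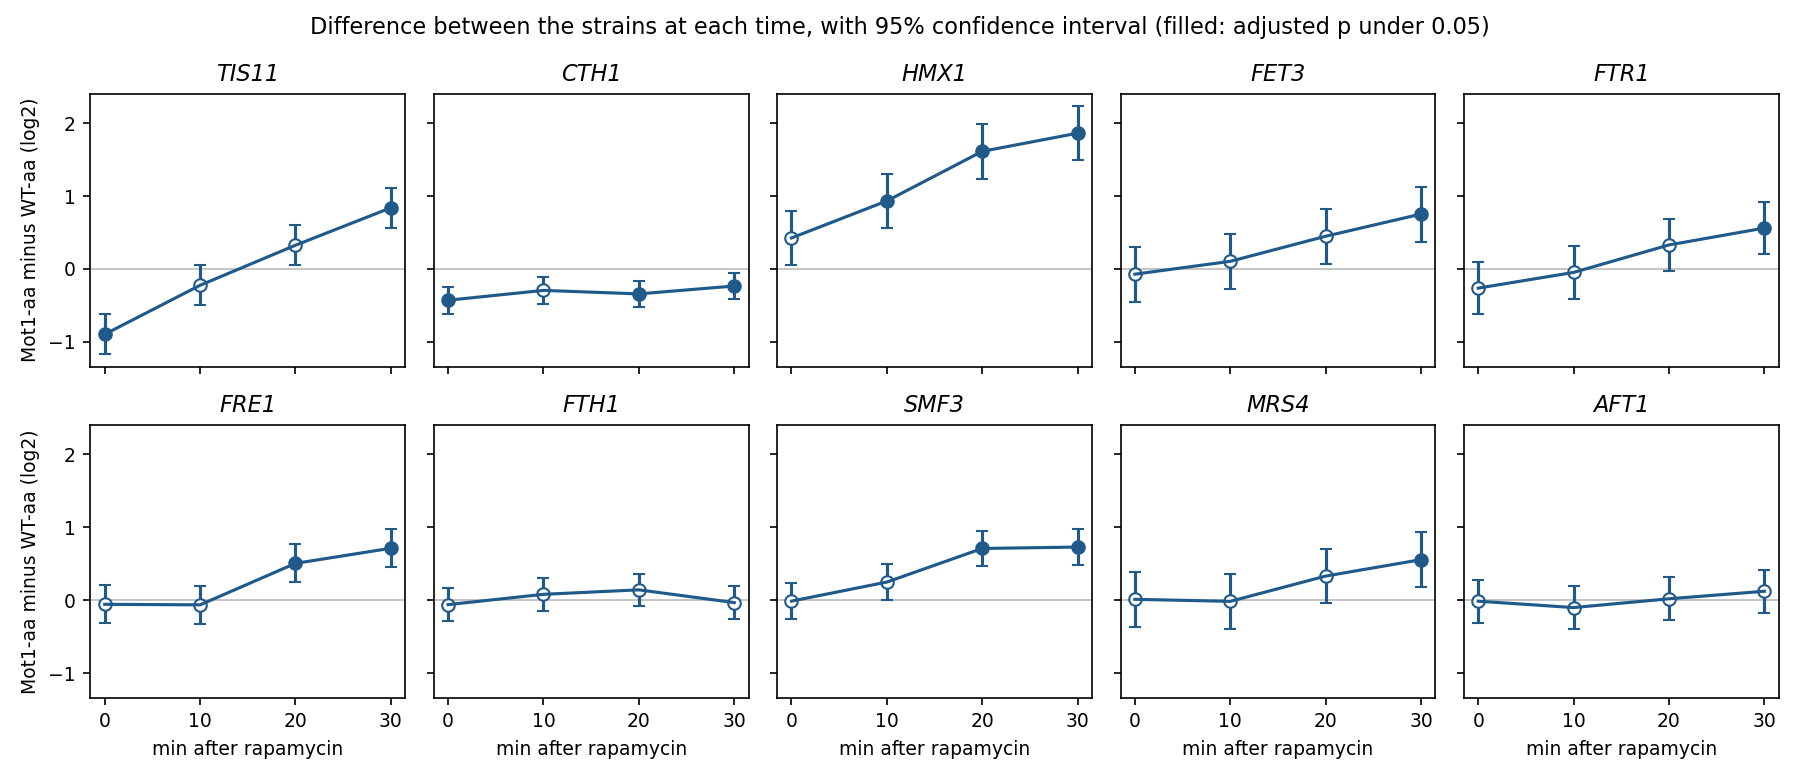
Difference between the strains, Mot1-aa minus WT-aa (log2, vertical axis), at 0, 10, 20 and 30 min of rapamycin (horizontal axis) for each of the 10 genes; points are estimates from 2 cultures per group with 95% intervals. TIS11 goes from -0.90 to 0.84, CTH1 stays below 0, HMX1 goes from 0.42 to 1.86, and SMF3, FRE1, FET3, FTR1 and MRS4 separate from 0 by 30 min.

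Set against each other at the same time, the strains differed at 0 min for 2 of the 10, both lower in Mot1-aa, TIS11 and CTH1, where 0.847% of all genes were lower. At 10 min HMX1 was the 1 gene called, higher by 0.93 (SE 0.17, limma adjusted p = 0.00537), where 7.39% of all genes were higher; the call was lost without culture 2 of WT-aa at 10 min (adjusted p = 0.0749), without the dye term (adjusted p = 0.0908) and on external control spots (adjusted p = 0.329). At 20 min 3 were higher, HMX1, SMF3 and FRE1, where 19.4% of all genes were, and 1 was lower, CTH1, where 12.4% were; the FRE1 call was lost without culture 1 of WT-aa or culture 2 of Mot1-aa at that time. At 30 min 7 were higher, where 24.9% of all genes were, and 1 was lower, CTH1, where 24.3% were; the FTR1 call was lost without either WT-aa array or culture 2 of Mot1-aa at that time. In either direction 49.1% of all genes differed at 30 min, so the members' count stands against a high background.

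The 10 min values deserve care, since the Mot1-aa cultures differed there. HMX1 had risen from 0 min by 0.86 (limma adjusted p = 0.00205) when culture 1 of Mot1-aa at 10 min was left out and by 0.21 (limma adjusted p = 0.276) when culture 2 was. TIS11 went the other way, with a rise of 0.68 (limma adjusted p = 0.00587) without culture 2 and a value of 0.28 (limma adjusted p = 0.0913) without culture 1. With both arrays the changes were 0.54 for HMX1 and 0.48 for TIS11, neither of which passed.

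Other genes of iron handling were taken from 4 lists chosen by function, also with earlier results of these data known. Of 11 genes for siderophore and cell wall uptake, which bring in iron bound to small carriers, 4 passed with a positive depletion effect at 30 min, where 13.6% of all genes did, and the median was 0.30. Among them were FRE4, a reductase, at 0.91 (SE 0.16, limma adjusted p = 0.00399), and the siderophore transporters ARN2 at 0.77 and SIT1 at 0.69. These genes also began low in Mot1-aa: 5 of the 11 were lower than in WT-aa at 0 min, where 0.847% of all genes were, among them FIT2, a cell wall mannoprotein, at -1.34, ENB1, the enterobactin transporter, at -1.22, and FRE4 at -1.09. In group means, FRE4 went from -0.56 to -0.35 in Mot1-aa and from 0.53 to -0.16 in WT-aa, so its depletion effect lay mostly on the control side. ARN2 went from -0.08 to 0.40 in Mot1-aa and from 0.28 to -0.01 in WT-aa. SIT1 went from -0.40 to -0.02 in Mot1-aa and from 0.29 to -0.02 in WT-aa, so its level at 30 min was alike in the strains. FIT2 and ENB1 fell in Mot1-aa, by 0.30 and 0.34 on the log2 scale at 30 min. Both were also lower in WT-aa by then: group means went from 0.39 to -0.21 for FIT2 and from 0.03 to -0.20 for ENB1.

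Of 21 genes for other metal transport and iron sensing, 6 passed with a positive depletion effect at 30 min, where 13.6% of all genes did, with a median of 0.22. SMF1, a manganese transporter of the same family as SMF3, gave 1.20 (SE 0.20, limma adjusted p = 0.00265), its Mot1-aa group mean being 0.34 before rapamycin and 1.46 after 30 min, and its WT-aa means -0.08 and -0.17. CCC2, the copper pump that loads Fet3 in the secretory pathway, gave 0.85 (SE 0.16, limma adjusted p = 0.00501). BOL2, part of the complex that passes the iron signal to Aft1, gave 0.64. Within Mot1-aa, VHT1, the biotin transporter, rose by 1.11 at 30 min, beside a WT-aa change of 0.54 that did not pass (limma adjusted p = 0.147), and ATX1, the copper chaperone that serves Ccc2, fell by 0.73 on the log2 scale.

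Of 25 genes measured for iron-sulphur cluster assembly, 3 passed with a positive and 1 with a negative depletion effect at 30 min, with a median of 0.06. These shares were no higher than the 13.6% and 7.51% of all genes. ISU2, a scaffold protein, gave 0.77, NBP35, a scaffold of the cytosolic pathway, 0.74, and GRX5, a mitochondrial glutaredoxin, 0.44. ACP1, the mitochondrial acyl carrier protein, gave -0.69 (SE 0.11, limma adjusted p = 0.00228).

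Enzymes and cytochromes that use iron had the highest share of calls of the 4 lists. Of 26 measured, 16 passed with a positive depletion effect at 30 min, where 13.6% of all genes did, and the median was 0.60, against 0.01 over all genes. CTT1, the cytosolic catalase, gave 1.83 (SE 0.12, limma adjusted p = 2.05e-05), OLE1, the fatty acid desaturase, 1.63, and RNR2, a subunit of ribonucleotide reductase, 1.36. At 0 min this list already held differences between the strains: CYC1, cytochrome c, was higher in Mot1-aa by 0.55 and RNR2 by 0.48, while BIO2, biotin synthase, was lower by a difference of -0.61. Messages of this class are among those that Tis11 is known to destabilise. The RNA measured was that labelled within the final 6 min, and message decay was not measured.

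The genes most like TIS11 and HMX1 were looked up among 1717 genes whose group means spanned at least 0.5, by Pearson correlation over the 8 group means, which share the 16 arrays and the reference. For TIS11 they were RTA1 at 0.93, YGL039W at 0.92, CCC2 at 0.91, TDA4 at 0.88 and SRY1 at 0.88. For HMX1 they were HAL9, FMP46, PIG2, ATP22 and COM2, all from 0.996 to 0.999. With 8 points and most of them moving with time in Mot1-aa, many genes reach high values, so these are descriptions of shape only.

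**Figure D4:**
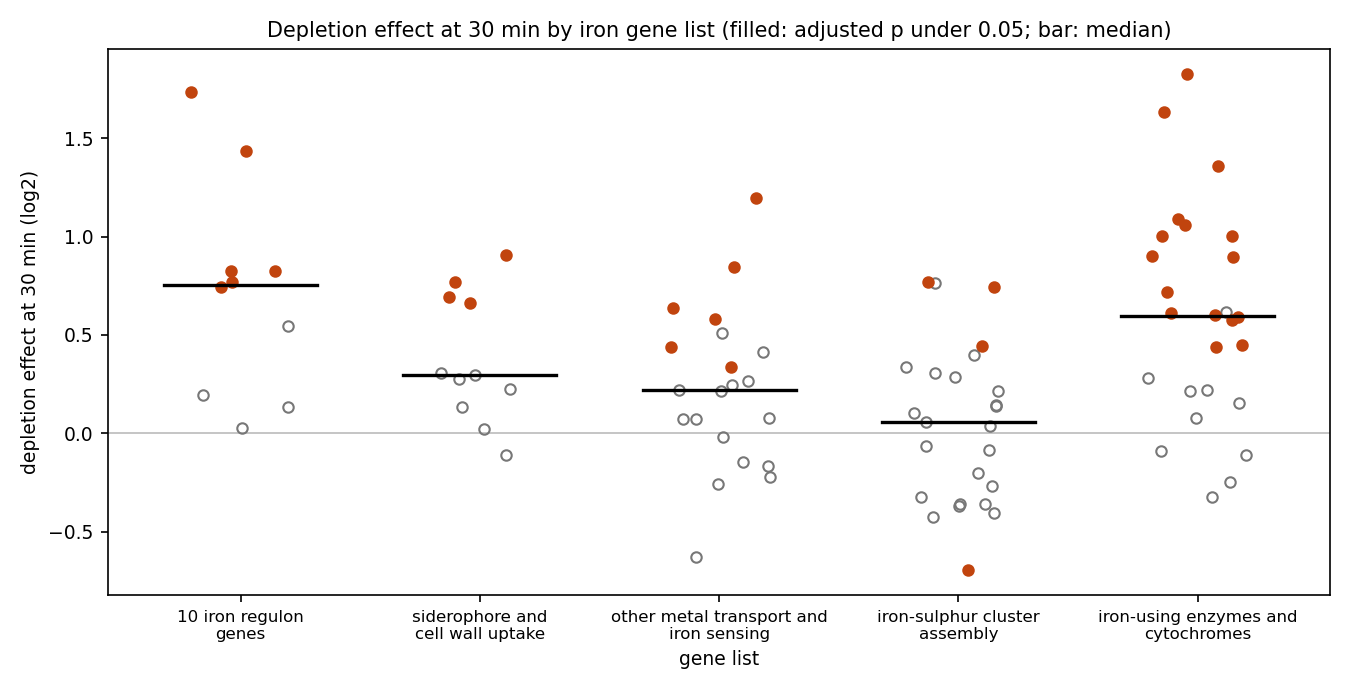
Depletion effect at 30 min (log2, vertical axis) for the 10 genes and the 4 lists of iron genes (horizontal axis); each point is 1 gene, filled where the limma test passed, and the bar is the list's median. The medians are 0.75 for the 10 genes, 0.30 for siderophore and cell wall uptake, 0.22 for other metal transport and iron sensing, 0.06 for iron-sulphur cluster assembly and 0.60 for iron-using enzymes and cytochromes.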

How the data were processed

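The authors' scanner files held spot and local background intensity for Cy5 and Cy3, without subtraction, per the file headers. A deposited table held the authors' log2 ratios per spot, with a normalization that the sources used here do not give. Its columns had medians of -0.007 to 0.022 and correlated with the scanner ratios at 0.796 to 0.978; it served as an alternative.

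Intensities were corrected by normexp (offset 50), loess-normalized within arrays on gene spots, turned to log2 sample over reference by the labelled dye, and averaged over duplicate spots (limma 3.58.1, R 4.3.3). Of 6388 gene probes, 5326 had 1 gene name, which gave 5315 genes; 1062 had none. FPR1, deleted in both strains, was not analysed here. One limma fit (lmFit, eBayes) used all 16 arrays, with 8 groups and a term for dye and culture number (7 residual degrees of freedom). Two-sided p-values for 13 comparisons were adjusted by Benjamini-Hochberg over all genes in each, with a threshold of 0.05. Intervals are 95%. The fit was tested on simulated data with noise independent between arrays, and no result above rests on that test. The number of arrays limits precision.

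The members, the 4 lists and the tests were chosen with earlier results of these data known. From each list, up to 3 genes per direction and comparison with the largest called difference could be named. Alternatives covered background correction, scaling, the dye term, array weights, a filter on dim probes, the arrays fitted and the authors' ratios.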

Additional observations from a re-analysis of the deposited data

Results flagged for a closer look

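For 9 values the change after rapamycin in Mot1-aa differed from that in WT-aa by the interaction term of the limma fit (log2, 2 cultures per group). TIS11 gave 1.22 at 20 min and 1.73 at 30 min, and HMX1 gave 1.19 and 1.44. SMF3 gave 0.72 at 20 min and 0.74 at 30 min. At 30 min FET3 gave 0.82, FTR1 gave 0.82 and FRE1 gave 0.77. All 9 were positive in both cultures. For TIS11 the effect held a low start in Mot1-aa and a start above the reference in WT-aa. For FET3 and FTR1 it held lower WT-aa values at 30 min than at 0 min, as described above. For HMX1 and SMF3 the WT-aa change at 30 min was 0.14 and 0.13, and neither passed.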

How the results depend on the processing

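Of 3480 single-gene values recomputed under other settings, 3275 kept their direction and side of the threshold, 115 lost a call, 89 gained one and 1 turned direction with a call: MRS4 between the strains at 10 min, -0.02 with all arrays, 0.34 without culture 2 of Mot1-aa at 10 min and -0.38 without culture 1. Calls are counted below among the 10 genes, beside the count reported. The share of all genes that passed is not set beside these counts. They show how the fit moves and do not tell the 10 genes apart from the rest. Without a replicate block (no dye and culture term) there were 2 of 6 calls for the depletion effect at 30 min, 1 of 3 at 20 min, 1 of 2 for the strain difference at 0 min, 0 of 1 at 10 min and 2 of 4 at 20 min, and 0 of 1 for the Mot1-aa change at 10 min. Culture deviations from group means correlated over 0.1 in 25 of 28 pairs of groups (median 0.62, lowest -0.356); no source says that a culture number marks 1 flask followed over time. Scaling on external control spots, which shifted the median of all genes by -0.61 in the strain difference at 0 min and by 0.54 in the depletion effect at 20 min, gave 0 calls for the depletion effect at 20 and 30 min, 0 for the strain difference at 0 and 10 min, 1 at 20 min and 1 at 30 min, and 0 for the Mot1-aa change at 10 min. With only the arrays of the groups compared there were 5 calls for the depletion effect and 5 for the Mot1-aa change at 20 min, 7 for the Mot1-aa change at 30 min, 8 for the strain difference at 20 min and 0 at 0 min. The single Mot1-aa call at 10 min was also lost (0 calls) with array weights, the authors' ratios, median centring, an offset of 10, the groups compared alone and a random block. The strain difference at 20 min had 8 calls with array weights and 7 with the authors' ratios, and that at 10 min had 2 with a random block. Without both Mot1-aa 10 min arrays, chosen after seeing the data, there were 6 calls for the depletion effect at 20 min, 7 for the Mot1-aa change and 3 for the WT-aa change at 30 min, and 8 for the strain difference at 20 min. Without 1 array at a time, calls ranged from 0 to 3, 0 to 7, 2 to 8 and 5 to 8 for the strain difference at 0, 10, 20 and 30 min. They ranged from 0 to 2, 3 to 4 and 3 to 7 for the Mot1-aa change at 10, 20 and 30 min, from 0 to 3 for the WT-aa change at 30 min (0 to 0 at 10 and 20 min), and from 1 to 6 and 4 to 7 for the depletion effect at 20 and 30 min (0 to 0 at 10 min). The count moved by over 1.5 times without either Mot1-aa 10 min array (7 or 3 at 10 min and 8 at 20 min for the strain difference, 6 for the depletion effect at 20 min), culture 2 of WT-aa at 10 min (0 for the strain difference at 10 min), any array of the strain difference at 0 min (0 without culture 1 of Mot1-aa, 1 without each other), either the culture 1 array of Mot1-aa at 0 or 20 min, of WT-aa at 0 min or culture 2 of WT-aa at 20 min (1 for the depletion effect at 20 min), and culture 2 of Mot1-aa at 20 or 30 min (2 and 5 for the strain difference at those times). A lone array of a group was taken to vary like the other groups. With 2 cultures per group, effects the size of that of MRS4 lie at the edge of what could be called.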

Other observations

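The 10 genes did not share 1 pattern. Over the 8 group means, HMX1 and SMF3 correlated at 0.95, FET3 and FRE1 at 0.94, FET3 and FTR1 at 0.93, and SMF3 and MRS4 at 0.92, while CTH1 and HMX1 stood at -0.77. Of 45 pairs, 38 were above 0 and 27 above 0.5, with a median of 0.61. These points share the same 16 arrays and the same reference, and each is a mean of 2 cultures, so the values describe shape and carry no test. In the WT-aa cultures, 2 of the 26 iron-using enzymes passed as higher at 30 min of rapamycin, where 19 of all 5315 genes did. They were ACO1, aconitase, which rose by 0.68, and BIO2, biotin synthase, by 0.45. Of the 11 siderophore and cell wall genes 2 passed as lower, where 2 of all 5315 genes did. Among these 11 genes FRE4 fell by 0.70 and FIT2 by 0.60 on the log2 scale.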
